A study of Phanerodontia chrysosporium with 12 samples.

Results

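The change in the transcriptome of Phanerochaete chrysosporium between 1 h and 3 h of contact with oak extractives was measured by setting the 3 libraries of 3 h against the 3 libraries of 1 h, which are 6 of the 12 libraries of the series. Every culture was mycelium of the homokaryotic strain RP78, grown without shaking at 37 °C for 4 days in 20 ml of liquid minimal medium. All cultures then received the dried acetone extract of Quercus petraea heartwood at 100 µg/ml, carried in DMSO. Separate cultures were harvested immediately (T0) and after 1, 3 and 6 h, with 3 biological replicates at each time. Cultures given DMSO alone were not analysed here, so time since the addition and the action of the extractives cannot be told apart. The T0 and 6 h libraries did not enter the contrast, though they helped set its filter and its estimate of the spread, and serve below to describe where the changed genes lay before and after it.

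White-rot fungi such as P. chrysosporium break down lignin together with the other polymers of wood. Heartwood extractives are small molecules, many of them phenolic, that protect wood from decay, and a fungus growing in wood meets them as potential toxins. In fungi such compounds are commonly oxidised by cytochrome P450 enzymes, conjugated by glutathione transferases and moved by membrane transporters. The deposited tables list gene models by numeric protein ID and do not pair them with names, so members of these families were not counted. Gene models are therefore described by level, length, size of change and time course, and 4 of them are given by ID.

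Of 13602 gene models listed, 11813 had enough reads to be tested. The 6 libraries held between 2137932 and 10697807 gene reads. A pair of short models, of 650 nt and 156 nt, held ranks 1 and 2 per length (by RPKM) in every library, and together they took 9.61%, 65.9% and 45% of the reads in replicates 1 to 3 at 1 h. At 3 h their share was 3.12%, 15.7% and 4.12%. The groups overlapped, since 1 h replicate 1 lay below 3 h replicate 2. The mean share was 40.2% ± 28.4 (SD, n = 3) at 1 h and 7.64% ± 6.98 at 3 h, a difference that did not pass the exact two-sided permutation test (p = 0.2, adjusted over 6 measures per library 0.8, smallest possible p 0.1). Neither member passed the test between the times, at log2 fold changes of -3.36 (SE 1.18) for the model of 650 nt and -3.51 (SE 1.15) for that of 156 nt (edgeR, Benjamini-Hochberg adjusted p = 0.137 and 0.11). The reads left outside the pair were 729521 to 6326762 at 1 h and 4586896 to 10364009 at 3 h, so low transcripts were measured less precisely at 1 h. Counts of 0 allowed up to 2.90 CPM (counts scaled to a library size adjusted by TMM) in 1 h replicate 2 and up to 0.195 CPM in 3 h replicate 1, by counting error alone. All read shares below leave out the pair.

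**Figure D1:**
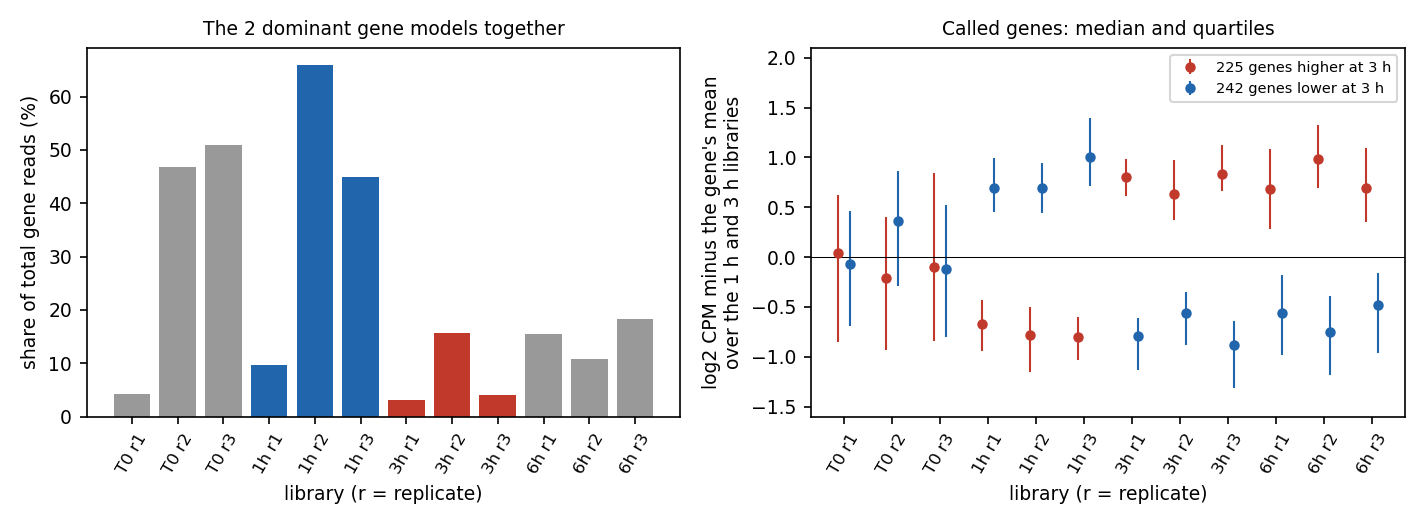
Left, the bars give the share of total gene reads (%) held by the 2 dominant models in each of the 12 libraries, with the lowest bar at 3.12% (3 h, replicate 1) and the highest at 65.9% (1 h, replicate 2). Right, points and lines give the median and the quartiles, over the called genes, of log2 CPM minus the gene's mean over the 1 h and 3 h libraries; the 1 h and 3 h medians are set apart by the choice of genes, the 6 h libraries lie on the side of the 3 h libraries, and the T0 medians lie between -0.21 and 0.37.

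By 3 h, 225 genes stood higher than at 1 h and 242 lower, called by edgeR's quasi-likelihood test where the Benjamini-Hochberg adjusted p was under 0.05. These 467 genes were 3.95% of the genes tested, with 1.9% higher and 2.05% lower. The calls were nearly even in direction. The median log2 fold change over all genes tested was 0.04, a value that TMM scaling tends to hold near 0. Among uncalled genes with a difference of at least 2-fold, 647 were higher at 3 h and 456 lower. The values are shares of the RNA of a culture, so fewer cells with a transcript and less of it per cell cannot be told apart. The genes that rose did so by a median of 2.92-fold (log2 quartiles 1.28 and 1.89), 48 of them by 4-fold or more. The genes that fell did so by a median of 2.99-fold (log2 quartiles -2.07 and -1.19), 72 of them by 4-fold or more. The tail was longer on the falling side, where 14 genes fell at least 8-fold and the extreme was 64.7-fold. On the rising side 5 genes rose at least 8-fold and the extreme was 9.43-fold. By counting error alone, counts of 0 allowed up to 0.330, 2.90 and 1.43 CPM in replicates 1 to 3 at 1 h. At 3 h they allowed up to 0.195, 0.529 and 0.203 CPM. Low levels could thus be followed further down at 3 h, and the part of this in the longer tail was not tested.

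The called genes were for the most part moderately to highly expressed. Genes that rose had a median level of 28.0 CPM at 1 h and 84.7 CPM at 3 h. Those that fell had a median of 99.8 CPM at 1 h and 33.1 CPM at 3 h, beside a median of 21.5 CPM at 1 h over all genes tested. No called gene was without reads in all libraries of either time. The libraries of the 2 times did not overlap in 224 of the 225 genes that rose and 237 of the 242 that fell, as they did not in 27.4% of all genes tested. Of 1534 genes with a difference of at least 2-fold, 1103 were not called, and the 70 uncalled genes with at least 4-fold had a median of 6.59 CPM at their higher time, against 94.5 CPM for the called genes.

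**Figure D2:**
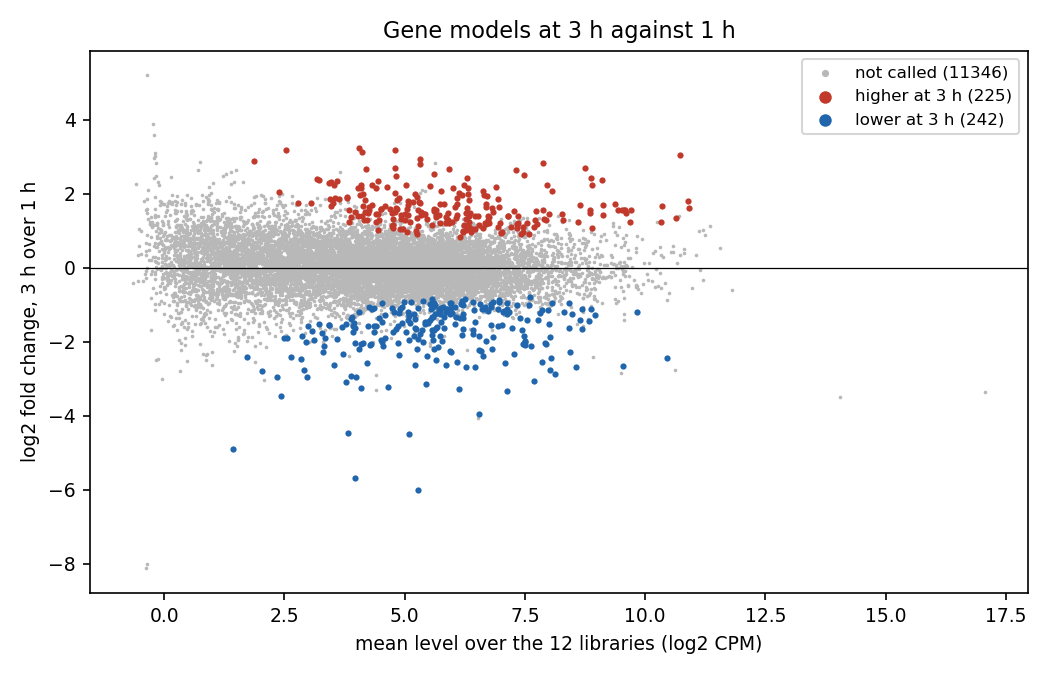
Each point is a gene model, with its mean level over the 12 libraries (log2 CPM) on the x axis and its log2 fold change of 3 h over 1 h on the y axis. The 225 genes higher at 3 h (red) and the 242 lower (blue) leave the weakest models empty of calls, and the blue points reach further from 0 than the red ones.

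The share of genes called grew with expression. In the lowest decile of genes by mean level none of 1182 was called, and 1.35% were in the third decile. In the highest decile 9.73% were called, 59 of them higher and 56 lower at 3 h. The size of change among the called genes was larger at low levels. Its median absolute log2 fold change was 2.83 in the second decile, over 1 gene called higher and 3 lower. It was 2.02 in the third decile, 1.34 in the eighth and 1.46 in the highest. A weak transcript needs a larger change to pass the test.

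The direction of change went with gene length. The genes that fell had a median length of 1098 nt and those that rose 1383 nt, beside 1275 nt for all genes tested. Among the shortest decile, 23 genes fell and 17 rose. Among the eighth decile (1686 to 2011 nt), 24 fell and 35 rose. Over every gene tested, called or not, the median log2 fold change went from -0.21 in the shortest decile to 0.21 in the longest. With the trend of each library on length removed, 688 genes were called, 334 higher and 354 lower, and 456 of the 467 genes remained called. The part of this trend in single calls was not tested.

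**Figure D3:**
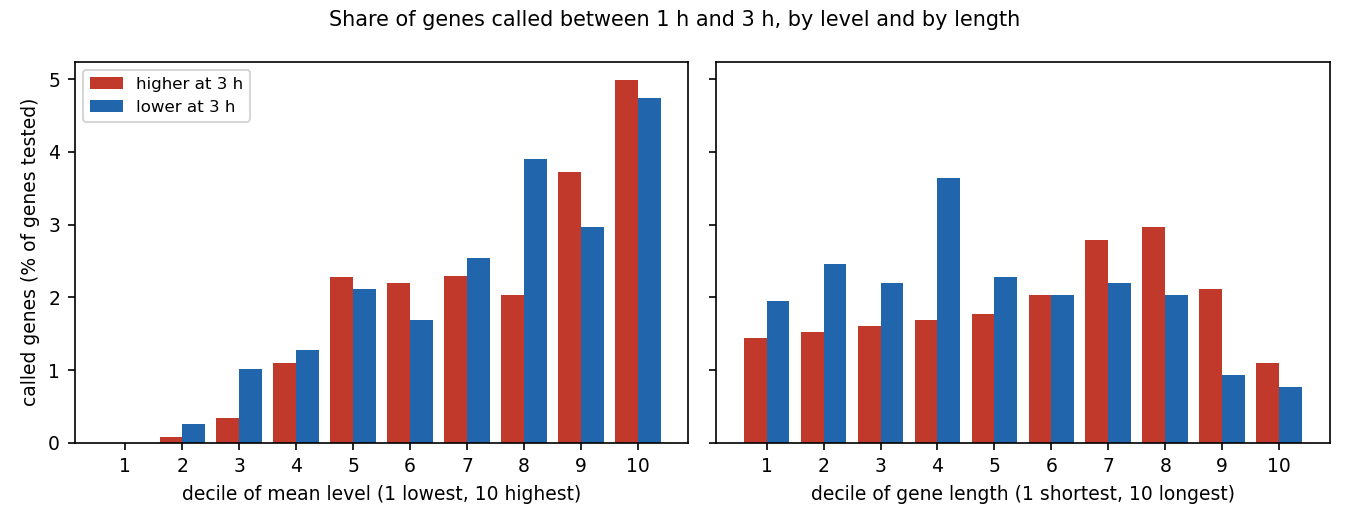
Bars give the percent of the genes tested that were called higher (red) or lower (blue) at 3 h, in deciles of mean level (left) and of gene length (right). Calls rise with level up to 9.73% in the highest decile, and blue bars exceed red ones in the shorter genes while red bars exceed blue ones in the longer genes from the seventh decile on.

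The rising gene that gained most of the read pool was protein 2966528 (474 nt). It stood at 570, 404 and 660 CPM in replicates 1 to 3 at 1 h, and at 4676, 5356 and 3528 CPM at 3 h. All 3 libraries of 3 h were above all of 1 h, and the rise was 8.29-fold (log2 3.05, SE 0.545, edgeR with Benjamini-Hochberg adjusted p = 0.00491). Per length, in the deposited RPKM values, the model was between rank 75 and rank 107 of all models in the libraries of 1 h and between rank 4 and rank 9 in those of 3 h. Its share of the reads went from 0.0743% ± 0.0147 (SD, n = 3) at 1 h to 0.629% ± 0.0847 at 3 h. At T0 it had been at 488, 1230 and 281 CPM, and at 6 h it was at 3215, 11010 and 7031 CPM. The 6 h libraries all exceeded those of T0 (log2 fold change 3.41, SE 0.554, edgeR with Benjamini-Hochberg adjusted p = 0.00176), in a comparison that shares no library with that of 3 h and 1 h.

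Protein 2909852 (657 nt) had the largest fold rise among the genes that reach 10 CPM at either time. It had 64, 3 and 10 reads at 1 h, or 7.04, 2.90 and 4.78 CPM. At 3 h it had 810, 317 and 721 reads, or 52.8, 55.9 and 48.7 CPM. The replicates of 3 h lay close together and well above those of 1 h, by 9.43-fold (log2 3.24, SE 0.580, edgeR with Benjamini-Hochberg adjusted p = 0.00495). The size of this rise rests on few reads at 1 h. The later values were more scattered, at 18.7, 103 and 28.1 CPM at 6 h against 6.29, 4.80 and 13.1 CPM at T0 (log2 fold change 2.69, SE 0.556, edgeR with Benjamini-Hochberg adjusted p = 0.00783).

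The falling gene that gave up most of the read pool was protein 2908637 (861 nt). It was at 2299, 2479 and 4149 CPM at 1 h and at 483, 525 and 396 CPM at 3 h, with no overlap. The fall was 6.36-fold (log2 -2.67, SE 0.374, edgeR with Benjamini-Hochberg adjusted p = 0.00119). Per length it held rank 13 or 14 of all models in each library of 1 h and ranks 174 to 290 at 3 h. Its level at 3 h was close to where it had been at T0, when it was at 417, 623 and 427 CPM, and at 6 h it was at 671, 280 and 569 CPM. Between T0 and 6 h it differed by 0.05 on the log2 scale (SE 0.353, edgeR with Benjamini-Hochberg adjusted p = 0.956). The high values of this gene were thus all in the libraries of 1 h.

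Protein 4946 (357 nt) fell furthest. It was at 323, 357 and 682 CPM at 1 h and at 4.82, 15.5 and 1.96 CPM at 3 h, where it had 74, 88 and 29 reads. The fall was 64.7-fold (log2 -6.02, SE 0.807, edgeR with Benjamini-Hochberg adjusted p = 0.000965). Its earlier and later levels differed from those of protein 2908637, as it was at 176, 179 and 22.9 CPM at T0 and at 6.90, 9.36 and 15.2 CPM at 6 h, so its 3 h and 6 h libraries were all below every library of T0. The log2 difference of 6 h from T0 was -3.58 (SE 0.723, edgeR with Benjamini-Hochberg adjusted p = 0.00676). The calls of these 4 genes between 1 h and 3 h held in all 27 alternative fits.

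**Figure D4:**
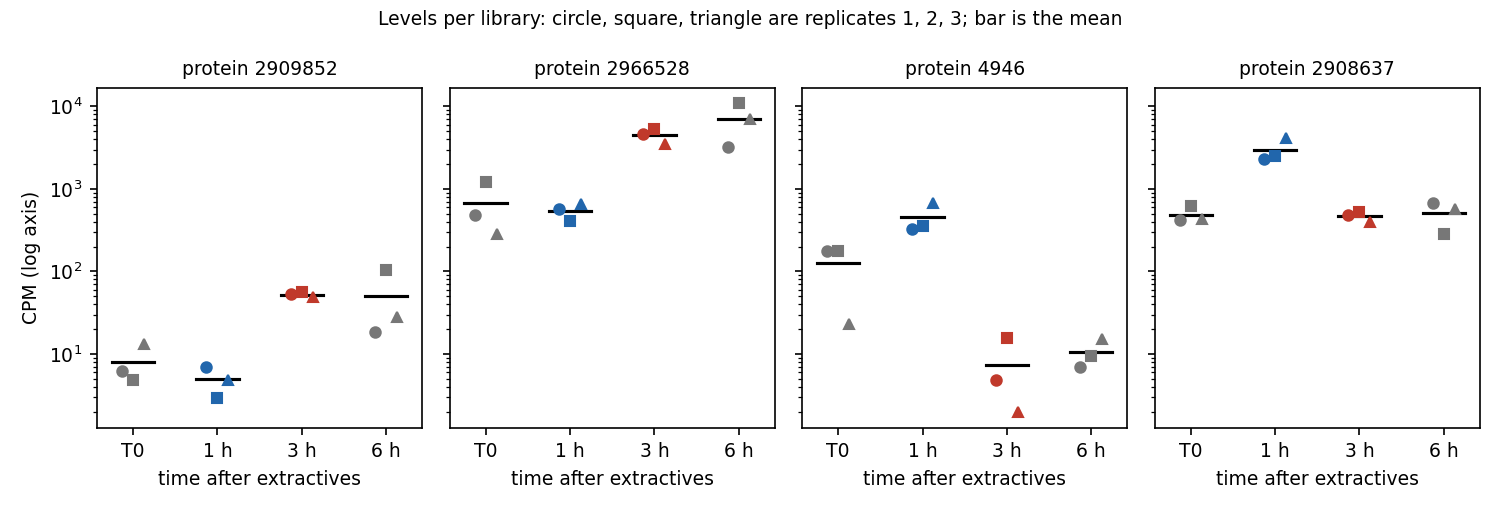
Each symbol is the level of a library in CPM on a log axis, by time after the extractives were added, with bars at the mean of the 3 replicates; 1 h is blue, 3 h red and the other times grey. The second gene (2966528) steps up after 1 h and stays up at 6 h. The first (2909852) steps up too, and at 6 h its replicates are scattered, at 18.7, 103 and 28.1 CPM. Protein 4946 steps down and stays down, and protein 2908637 is high at 1 h only.

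As a group, the genes that rose went from 2.67% ± 0.333 (SD, n = 3) of the reads at 1 h to 8.59% ± 0.568 at 3 h, and those that fell went from 7.41% ± 0.897 to 2.16% ± 0.151, which the choice of these genes fixes. The gain and the loss were spread unevenly over the genes. The 10 genes with the largest gains made up 43.4% of the gain, and 14 genes made up 50% of it. On the falling side the 10 largest losses made up 34.8%, and 23 genes were needed for 50%. How evenly the reads were spread over genes was compared per library, by exact permutation tests that cannot go below p = 0.1 with 3 libraries against 3. The number of genes that hold 50% of the reads was 826, 815 and 671 at 1 h and 866, 611 and 888 at 3 h, with overlapping groups (exact permutation test, two-sided, p = 0.8, adjusted over 6 measures 0.96). At an equal depth of 729521 reads, 11863, 11384 and 11704 genes had a read at 1 h and 11939, 11588 and 12010 at 3 h, again with overlapping groups (exact permutation test, two-sided, p = 0.4, adjusted 0.8).

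The 6 h libraries, whose levels were not part of the contrast that chose these genes, lay with those of 3 h. On the log2 scale, each gene's mean at 6 h was placed on the way from its mean at 1 h (0%) to its mean at 3 h (100%). For the genes that rose the median position at 6 h was 102% (quartiles 84.8% and 115%), and 222 of 225 lay nearer to 3 h than to 1 h. For the genes that fell it was 90.2% (quartiles 73.2% and 104%), and 230 of 242 lay nearer to 3 h. Positions are measured from the 1 h and 3 h means on which the genes were chosen, and such means are likely to be drawn apart by that choice. No share over all genes tested stands beside these counts, here or below. How far they hold for genes in general was not tested.

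The T0 levels of these genes, also outside the contrast, were spread over the way from 1 h to 3 h and beyond it. Among those that rose, 101 were at T0 nearer to their 3 h level and 124 nearer to their 1 h level. Among those that fell, 117 were nearer to 3 h and 125 nearer to 1 h. The median positions of T0 were 42.7% and 48.9%, with wide quartiles (0.508% to 87.2%, and 12.4% to 80.6%). By whether T0 lay nearer to 1 h or to 3 h, and with 6 h nearer to 3 h, all but a few of the genes formed 4 sets. A set of 101 genes was low at 1 h, with median levels of 86.0, 26.2, 74.5 and 94.3 CPM at T0, 1, 3 and 6 h. A set of 121 genes was low at both T0 and 1 h, with medians of 31.8, 32.4, 96.5 and 92.8 CPM at the 4 times. A set of 114 genes was high at 1 h, with medians of 36.0, 102, 28.3 and 30.1 CPM, and 116 genes were high at both T0 and 1 h, with medians of 102, 99.8, 37.9 and 42.2 CPM. These sets were formed from the values themselves and carry no test. They cut a spread of positions. T0 lay between the 1 h and 3 h means for many genes, on the side of 1 h for 68 that rose and 81 that fell. On the side of 3 h it did so for 63 and 80.

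Most of the gained reads were in the genes low at both T0 and 1 h. These 121 genes took 1.81% of the reads at 1 h and 6.10% at 3 h, while the 101 low at 1 h alone took 0.850% and 2.47%. The loss was more even, from 3.65% to 1.03% in the 114 genes high at 1 h alone and from 3.60% to 1.05% in the 116 high at both T0 and 1 h. Of these 4 sets, the genes high at 1 h alone had the lowest median length, 1064 nt, and those low at 1 h alone the highest, 1457 nt.

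**Figure D5:**
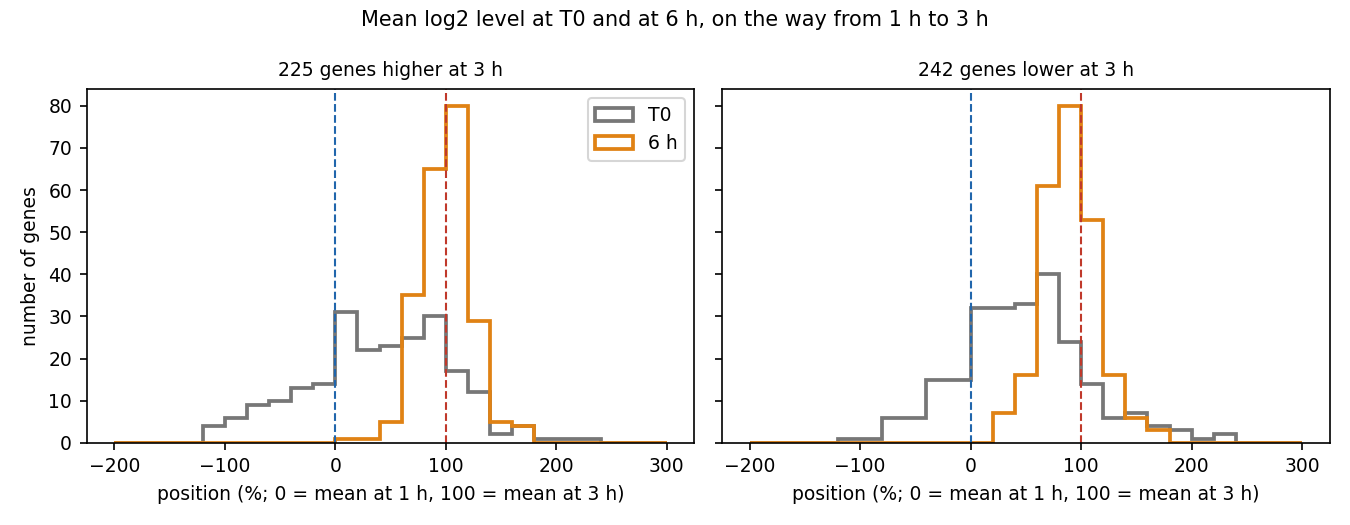
For the 225 genes higher at 3 h (left) and the 242 lower (right), the histograms count genes by the position of their mean log2 level at T0 (grey) and at 6 h (orange) on a scale where 0 is the mean at 1 h and 100 the mean at 3 h. The 6 h positions gather near 100, with medians of 102% and 90.2%, while the T0 positions are spread from below 0 to above 100.

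The comparison of 6 h with T0 shares no library with that of 3 h with 1 h, and was set beside it. Of the 225 genes that rose, 92 (40.9%) were also called higher at 6 h than at T0, where 4.35% of all genes tested were called higher, and 3 were called lower. Of the 242 that fell, 70 (28.9%) were also called lower at 6 h than at T0, against 3.18% of all genes tested, and 7 were called higher. Read the other way, the shared genes were 17.9% of the 514 genes higher at 6 h and 18.6% of the 376 lower. Both comparisons used a common estimate of the spread. In fits of the 2 times of each comparison alone, the shared genes were 82 of 304 that rose and 43 of 303 that fell, against 2.31% and 1.56% of all genes called in those directions at 6 h. With replicate 1, 2 or 3 of 1 h left out of the common fit, the shared genes were 57 of 103, 49 of 119 and 42 of 81 that rose. Of those that fell they were 37 of 144, 64 of 173 and 30 of 85. Without replicate 1 or 3 of 3 h they were 44 of 95 and 48 of 94 that rose, and 22 of 75 and 28 of 77 that fell. Those lower were 46 of 217 without T0 replicate 1, and 43 of 192 and 46 of 279 with replicate 1 or 2 of 6 h left out. In 6 h replicate 3 fewer genes had a read at equal depth than in any other library (10947, against 11374 to 12010). Without it 68 of 202 genes that rose and 48 of 233 that fell were shared. The percent of all genes called at 6 h is not given for these left-out fits.

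The count of changed genes depended on single libraries. With replicate 1, 2 or 3 of 1 h left out it was 247, 292 and 166, and with replicate 1, 2 or 3 of 3 h left out it was 170, 628 and 171. A smaller set of 135 genes, 67 higher and 68 lower, was called whichever of the 6 libraries was left out, and it holds the 4 genes described above. Its rising genes had a median log2 fold change of 2.07 and its falling genes -2.18, and 66 of the 67 and 67 of the 68 lay nearer to 3 h than to 1 h at 6 h. Of the 67 genes, 38 (56.7%) were also called higher at 6 h than at T0, and 23 (33.8%) of the 68 were called lower. Over all genes tested, 4.35% were called higher and 3.18% lower. The 135 genes had a median level of 6.125 on the log2 CPM scale, and no share over genes of like level stands beside these percents.

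The libraries differed in how closely they matched. Pearson's r of log2 CPM across genes, which are not independent replicates, was 0.991 between 3 h replicates 1 and 3, and 0.939 and 0.928 for 3 h replicate 2 with these. At 1 h it was 0.955 for replicates 1 and 3, and 0.902 and 0.888 for replicate 2 with these. With the reads of the dominant pair left out, 451 genes were called, 207 higher and 244 lower. Of these, 448 were among the 467. With the log2 share of the pair as a covariate, 152 genes were called, 77 higher and 75 lower, of which 141 were among the 467. The part of the pair in the other calls was not tested.

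For 3605 genes, 30.5% of those tested, the 95% interval of the log2 fold change lay wholly within a 2-fold change in either direction. In the highest decile by level this held for 500 of 1181 genes (42.3%), and in the lowest decile for none. In simulated counts that copy these libraries in depth and in spread, 73% of 100 genes changed 4-fold and 13% of 100 changed 2-fold were called. Most 2-fold changes were thus missed there. The simulation gave 87 calls against 467 in the data, and the adjusted p is stricter where fewer genes change. Its rates may therefore be too low for these libraries.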

How the data were processed

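The authors deposited a table per library that gives for each protein ID, per the file headers, 2 read counts (unique and total) and an RPKM value. How reads were aligned and counted, on which build, and whether strand was used, is not given in the sources used here. Total gene reads were analysed as deposited. The deposited RPKM values served to recover gene lengths (for 13120 models, relative gap at most 2.1e-08) and to rank models. RNA was extracted with a soil RNA kit, per the labels' protocols.

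The test was edgeR 4.0.16 under R 4.3.3 (TMM, filterByExpr, glmQLFit, glmQLFTest). All 12 libraries entered the fit with time as the only term (8 residual degrees of freedom, common biological coefficient of variation 0.333), and the contrast was 3 h minus 1 h. SEs were derived from the fold change and the F statistic, and intervals use them. The script was tested on simulated data. No replicates agreed within sampling noise (smallest chi-square per degree of freedom 8.07), and all were kept. Shared reads were over 10% of the total in 10 of the 467 called genes and in 3.39% of those tested.

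Without names, the rule took in each direction the called gene with the largest fold change and the one with the largest change in read share, from genes without overlap that reach 10 CPM. Lists of enzyme, transporter and stress gene families were planned and could not be run. The members, rules and alternatives were chosen with earlier results of these data known. Alternatives were other scalings and filters, DESeq2 1.42.0, limma-voom (limma 3.58.1), blocks, thinning, unique reads and each library left out.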

Additional observations from a re-analysis of the deposited data

How the results depend on the processing

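The main fit called 467 genes between 1 h and 3 h (225 higher, 242 lower). DESeq2 called 922 genes (430 and 492) and a test against a 1.5-fold change 145 (67 and 78). An adjusted p under 0.01 in the main fit left 148 (73 and 75). A fit with the dominant pair's share as covariate called 152 (77 and 75), of which 141 were among the 467. A fit without the pair's reads called 451 (207 and 244), of which 448 were among the 467. Leaving out each library gave 166 to 651 genes, 81 to 333 higher and 75 to 355 lower. The labels do not say whether replicate numbers pair the cultures. Deviations of same-numbered libraries from their time's mean correlated at 0.03, -0.13 and -0.28, and those of differently numbered ones at -0.12 to 0.23. With 3 libraries at each time these values cannot decide whether cultures were paired, and the main fit took them as unpaired. With the replicate number as a block, 343 genes were called in the 12 libraries and 202 (94 and 108) in the 6 libraries. No scaling moved the median of all genes by over 0.1 on the log2 scale, and limma-voom moved the higher share of calls from 48.2% to 39.9%.

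The genes shared with 6 h against T0 were 92 of 225 higher and 70 of 242 lower. Of all genes tested, 4.35% were called higher at 6 h and 3.18% lower. By DESeq2 the shared genes were 172 of 430 and 143 of 492, against 6.74% and 6.00% of all genes tested. By separate fits 43 of 303 were lower, against 1.56% of all genes tested. With a library left out the shared genes ranged from 42 of 81 to 115 of 333 higher. Those lower ranged from 22 of 75 to 84 of 355. The percent of all genes called at 6 h is not given for these left-out fits. The dominant model of 650 nt had a log2 fold change of 0.0063 with the covariate, which holds its own reads. It was called by DESeq2 (adjusted p 0.0106) and without 3 h replicate 2 (edgeR quasi-likelihood test, adjusted p 0.0473), and that of 156 nt likewise (0.0103 and 0.0341). The difference in the number of genes holding 50% of the reads, 17.7, ranged from -32.2 to 106 with a library left out, and turned in sign without 1 h replicate 3 (-32.2), 3 h replicate 1 (-21.2) or 3 h replicate 3 (-32.2). That in genes with a read ranged from 62.2 to 324, and that in the share of the pair from -47.8 to -19.7 percentage points. For the rest, the cause was not tested. Reads outside the pair were fewest in 1 h replicate 2 (729521). With the libraries thinned to equal depth, 420 of 8999 genes tested were called between 1 h and 3 h, 207 higher and 213 lower. The part of depth in single calls was not tested.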
